A study of Rattus norvegicus with 45 samples.

Results

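The genes described here are 38 genes of fatty acid oxidation and of the response to PPAR-alpha, in rat liver after the triazole fungicides myclobutanil and triadimefon. They were taken from a list by gene symbol, with 1 probe set per gene, that of highest mean over all arrays. All 38 were found among the 14217 genes that the arrays represent by a probe set listed with a single gene, and 12 of them had more than 1 probe set. The rats were male Sprague-Dawley animals, 10 weeks old and dosed by gavage. Treated rats received 225 mg/kg/day of myclobutanil or 175 mg/kg/day of triadimefon, others were controls, and liver was collected at 6 h, 24 h or 14 days. The titles give 45 arrays, 5 in each of 9 groups. The series text counts 15 livers, as 5 biological replicates per treatment, and the labelling protocol 3 rats per group, so the number of animals behind the arrays is unsettled, and p-values measure the spread between arrays. What the controls were given, the time of day and feeding are not given in the sources used here.

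Fatty acids enter the hepatocyte, are bound and activated to acyl-CoA, and cross into mitochondria as carnitine esters. There, acyl-CoA dehydrogenases, hydratases, dehydrogenases and thiolases shorten them in turn, and part of the acetyl-CoA leaves the liver as ketone bodies. Peroxisomes shorten very long and branched chains, and Cyp4a enzymes oxidise the methyl end. PPAR-alpha is a nuclear receptor that binds fatty acids and, paired with RXR, raises genes at each of these steps, most visibly in rodent liver during fasting or after peroxisome proliferators.

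PPAR-alpha and RXR bind a direct repeat of 2 short motifs with 1 base between them. The 250 bases before the RefSeq start (build GRCr8) were therefore searched for this repeat, spelled AGGTCANAGGTCA, on both strands with at most 2 mismatches in its 12 fixed letters. A promoter of full length was given for 32 of the 38 members, and for 6 of the 7 that rose after triadimefon. The repeat was present in 5 of the 32, or 15.6%, and in 3.15% of 33469 promoters of the same length. These were Acadvl and Fabp1 with 1 mismatch, and Crat, Creb3l3 and Etfa with 2. With 1 mismatch allowed the shares were 6.25% and 0.368%, and with 3 allowed 34.4% and 21.4%. Of the 6 promoters of members that rose after triadimefon at 24 h, 1 held the repeat (Crat), against 4 of the other 26. The promoters shown are Crat, as the only one of those 6 with the repeat, Cyp4a3, the member with the widest swing between times, whose nearest match has 3 mismatches, and Fabp1 and Acadvl, which hold the closest matches of all members. Capitals mark the whole stretch of the nearest match, its free base and mismatched letters included. Each sequence runs 5′ to 3′ towards the gene's start.
Crat, chr3:34087100-34087349, minus strand: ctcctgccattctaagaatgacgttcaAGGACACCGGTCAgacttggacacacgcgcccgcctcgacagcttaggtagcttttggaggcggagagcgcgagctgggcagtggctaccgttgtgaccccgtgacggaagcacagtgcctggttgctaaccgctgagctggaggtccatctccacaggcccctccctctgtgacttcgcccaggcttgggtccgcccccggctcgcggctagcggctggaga
Cyp4a3, chr5:134352237-134352486, minus strand: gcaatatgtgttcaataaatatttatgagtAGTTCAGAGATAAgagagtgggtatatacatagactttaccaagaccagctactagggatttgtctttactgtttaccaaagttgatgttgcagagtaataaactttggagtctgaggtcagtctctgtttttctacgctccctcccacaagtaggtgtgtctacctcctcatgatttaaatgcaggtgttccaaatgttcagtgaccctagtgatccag
Fabp1, chr4:104749090-104749339, plus strand: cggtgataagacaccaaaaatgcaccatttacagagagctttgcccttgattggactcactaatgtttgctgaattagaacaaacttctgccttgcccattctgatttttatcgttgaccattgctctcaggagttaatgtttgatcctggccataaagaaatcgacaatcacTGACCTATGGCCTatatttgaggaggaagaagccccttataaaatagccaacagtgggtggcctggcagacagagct
Acadvl, chr10:55236706-55236955, minus strand: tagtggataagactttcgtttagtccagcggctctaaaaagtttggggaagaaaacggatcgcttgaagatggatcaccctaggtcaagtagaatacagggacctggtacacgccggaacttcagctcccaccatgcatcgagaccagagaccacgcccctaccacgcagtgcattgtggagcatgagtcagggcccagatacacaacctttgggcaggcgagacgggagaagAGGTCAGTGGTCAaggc
Counted from the start, the last base of the match is at -211 in Crat, -208 in Cyp4a3, -65 in Fabp1 and -5 in Acadvl. Fabp1 carries it on the opposite strand. A match here describes letters and is not a measured binding site.

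Values are the deposited scores, which run on a log-type scale whose base is not given. Array medians lay between -0.011 and 0.033, so a score of 0 is about the middle of all probe sets, and differences are given in score units with the standard error of the limma fit after ±. The bright end was not equalised, with 99th percentiles of the arrays from 2.69 to 3.52. Since most members are bright, counts of members by comparison are also given after quantile normalization, with the share of all probe sets on that scale. The normalization made the arrays' distributions equal and lowered the median SD of members within groups from 0.166 to 0.0923, with a lower SD in 38 of 38.

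Several arrays stood apart. Triadimefon 24 h replicate 5 was the highest of its group for 37 of the 38 members and lay more than 0.5 from the group median at 183 probe sets, against 18 to 75 in the other 4 arrays of that group. Its 99th percentile, 3.08, was near that of its group's next array, 3.01. Triadimefon 24 h replicate 1 was the lowest of its group for 33 members. In control 24 h, replicate 2 had the highest 99th percentile of all arrays, 3.52, was the highest of its group for 28 members and lay more than 0.5 from the group median at 403 probe sets. In control 6 h, replicate 1 had the lowest 99th percentile of all arrays, 2.69, and was the lowest of its group for 27 members. Replicate 2 of that group was the highest for 25 members. Control 6 h replicates 2 and 3 lay more than 0.5 from the group median at 109 and 135 probe sets. Their array files were the only ones with name endings 31 and 21. Myclobutanil 14 days replicate 5 was the lowest of its group for 35 members and carried muscle markers, with Acta1 at 1.90 against -0.49 to -0.38 in its group. Triadimefon 24 h replicate 2 carried pancreas markers, with Prss1 at 1.88 against -0.23 to -0.13 in its group. The part of other tissue in the members' values was not tested. Of 11 hepatocyte markers 8 were found, and their mean score lay between 3.43 and 4.47 in every array, so the labelled tissue is borne out. In whole liver, fewer cells of a type and less RNA per cell cannot be told apart.

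Most members were bright in every group. The mean over the 45 arrays lay above the middle probe set for 35 of 38 and above 3 for 5: Fabp1, the liver's fatty acid binding protein, at 4.13, Acsl1, an acyl-CoA synthetase, at 3.67, the thiolase Acaa2 at 3.19, the medium-chain dehydrogenase Acadm at 3.15 and the hydroxyacyl-CoA dehydrogenase Hadh at 3.13. At the low end were Ppara itself at -0.14, its coactivator Ppargc1a at -0.029, and the cytosolic thioesterase Acot1 at -0.51. The fasting hormone Fgf21 stood at 0.046. Differences of such dim probe sets may be compressed, which was not tested, and scores of different probe sets do not rank the genes' transcripts.

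At 24 h after triadimefon, 7 of the 38 members rose and 0 fell. They were the carnitine transporter Slc22a5, the carnitine acetyltransferase Crat, Eci1 and Ech1, which handle the double bonds of unsaturated chains, the peroxisome division factor Pex11a, the omega-hydroxylase Cyp4a3 and the mitochondrial thioesterase Acot2. Among all 31042 probe sets, 2.24% were higher and 5.75% lower at the same threshold, an adjusted p under 0.05. The dehydrogenases, the electron transfer proteins, the trifunctional protein and the ketone body enzymes had no member past it. Without replicate 5, 3 members rose (Slc22a5, Crat and Eci1) and Etfdh fell, beside 1.67% and 5.59% of all probe sets. After quantile normalization 16 rose and 1 fell (Etfb) with all arrays, and 11 rose and 1 fell (Etfb again) without replicate 5. On that scale, with all arrays, 4.45% of all probe sets were higher and 4.58% lower. Without triadimefon replicate 1, 10 members rose and 0 fell on the deposited scores, and without control replicate 4, 7 rose and 3 fell. With only the control and triadimefon arrays of 24 h in the fit, 0 members passed in limma, with Slc22a5 at the same difference (adjusted p = 0.12). The counts without triadimefon replicate 1, without control replicate 4 and in this smaller fit stand without the share of all probe sets under the same setting. So do those after quantile normalization without replicate 5. They show how far the calls depend on the processing, not whether members passed more often than all probe sets. The median difference of the 38 was 0.047, against -0.011 over all genes, and without replicate 5 it was -0.034.

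**Figure D1:**
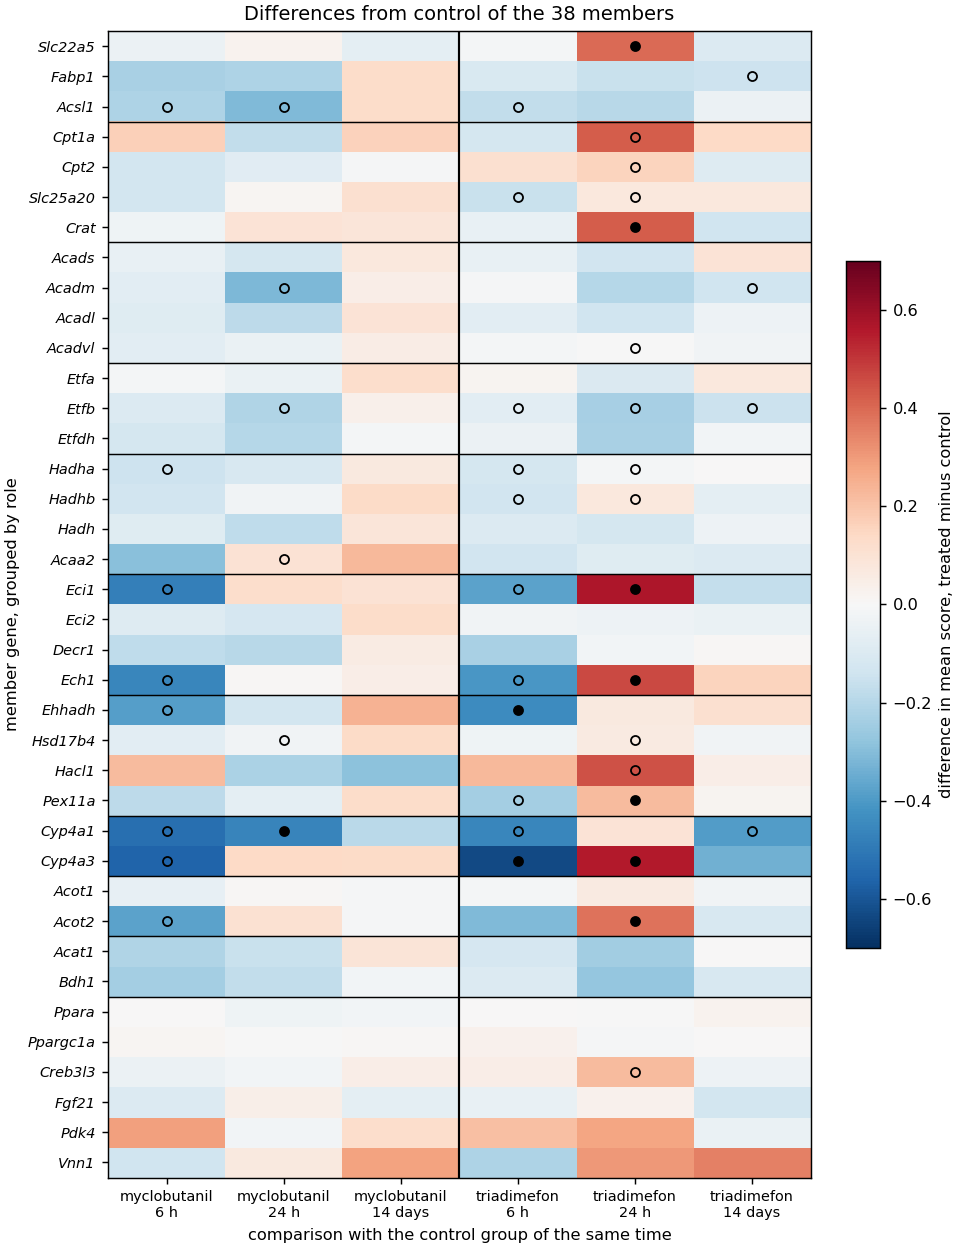
Difference in mean score from the control group of the same time (colour, score units, 5 arrays a group) for the 38 members (vertical axis, grouped by role) in the 6 treatment comparisons (horizontal axis). Filled circles mark an adjusted p under 0.05 on the deposited scores and open circles those past it after quantile normalization only. The 7 filled circles of triadimefon at 24 h lie in the uptake, carnitine, auxiliary, peroxisomal, omega-hydroxylase and thioesterase rows.

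Among the genes of uptake and the carnitine shuttle, Slc22a5 scored 0.16, 0.25, 0.23, 0.24 and 0.19 in the controls at 24 h, in the order of replicates 1 to 5. After triadimefon it scored 0.37, 0.59, 0.40, 0.56 and 1.13. The groups did not overlap, with or without replicate 5, and every treated array was above every control. The difference was 0.40 ± 0.077 (adjusted p = 0.00082), and 0.27 ± 0.054 without replicate 5 (adjusted p = 0.0017). Crat scored 0.44, 0.47, 0.53, 0.39 and 0.58 in the controls and 0.73, 0.86, 0.92, 0.67 and 1.33 after triadimefon, again without overlap. The difference of Crat was 0.42 ± 0.084 (adjusted p = 0.0011), and 0.32 ± 0.074 without replicate 5 (adjusted p = 0.0066). Both calls held with any single array of the 2 groups left out. Cpt1a, which makes the long-chain carnitine esters and sets the rate of entry, scored 1.69, 1.81, 1.90, 1.64 and 1.98 in the controls and 1.69, 2.39, 1.97, 1.92 and 3.17 after triadimefon. The groups overlapped, with replicates 2 and 5 high. The difference of Cpt1a, 0.42 ± 0.16, did not pass (adjusted p = 0.09). Its second probe set gave 0.35 ± 0.14 (adjusted p = 0.1). Fabp1, at -0.15 ± 0.16, and Acsl1, at -0.19 ± 0.12, did not pass.

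**Figure D2:**
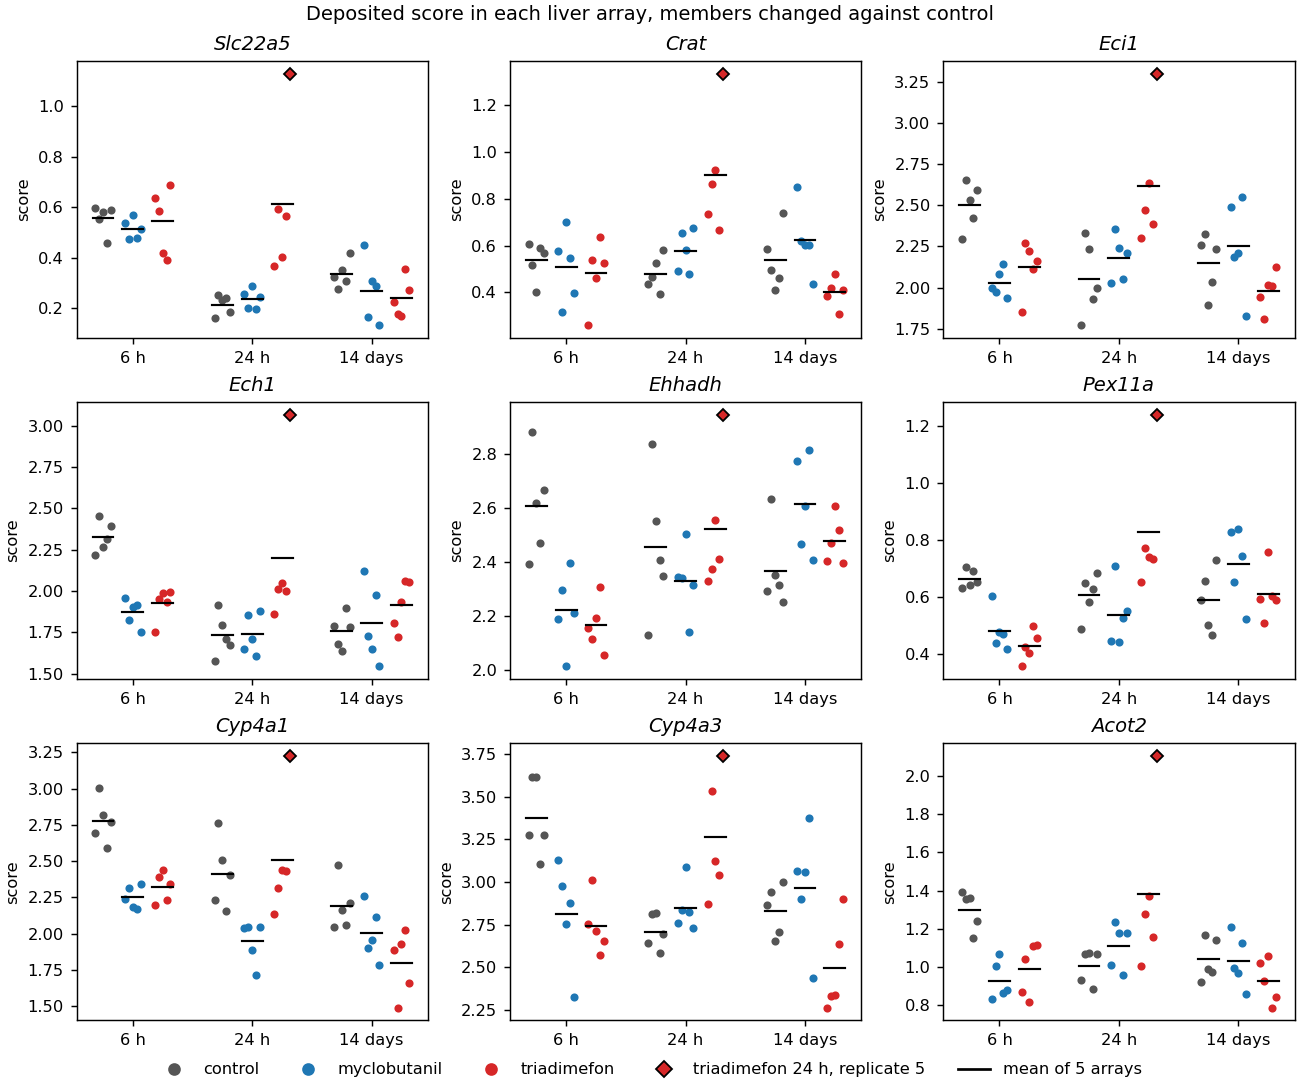
Deposited score (vertical axis, its own scale in each panel) in each of the 45 arrays for the 9 members that changed against control in at least 1 comparison. Points are arrays, horizontal bars are means of 5, and the diamond is triadimefon 24 h replicate 5, which is the highest of its group in all 9 panels.

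Of the 4 auxiliary enzymes for unsaturated chains, 2 rose. Eci1, the mitochondrial enoyl-CoA isomerase, scored 1.77, 2.33, 2.23, 1.93 and 2.00 in the controls and 2.30, 2.47, 2.64, 2.38 and 3.30 after triadimefon. All 5 treated arrays were above the control mean, and the ranges overlapped by the lowest treated and the highest control array. The difference of Eci1 was 0.57 ± 0.13 (adjusted p = 0.0045), and 0.40 ± 0.11 without replicate 5 (adjusted p = 0.026). The second probe set of Eci1, dim with a mean score of -0.0595, gave -0.0084 ± 0.0345 with all arrays and did not pass. Ech1, a dienoyl-CoA isomerase, scored 1.57, 1.92, 1.80, 1.71 and 1.67 in the controls and 1.86, 2.01, 2.05, 2.00 and 3.07 after triadimefon. Replicate 5 lay far above the rest of its group, and the other 4 treated arrays were still above the control mean. The difference of Ech1 was 0.46 ± 0.13 (adjusted p = 0.017) and fell to 0.25 ± 0.085 without replicate 5, where it no longer passed (adjusted p = 0.067). It did pass on quantile-normalized scores without replicate 5, a setting chosen after seeing the data (0.39, adjusted p = 0.0048). Eci2 and the dienoyl-CoA reductase Decr1 were at -0.034 ± 0.092 and -0.020 ± 0.11 and did not pass.

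Cyp4a3 scored 2.64, 2.81, 2.82, 2.58 and 2.70 in the controls and 2.87, 3.53, 3.13, 3.04 and 3.74 after triadimefon. The groups did not overlap, although the gap between them was small. The difference was 0.55 ± 0.15 (adjusted p = 0.016), and the call ended without replicate 5 (0.43 ± 0.15, adjusted p = 0.065) or without replicate 2, the array with pancreas markers. Cyp4a3 passed on quantile-normalized scores without replicate 5 (0.60, adjusted p = 0.0027). Cyp4a1, the other omega-hydroxylase, was at 0.098 ± 0.13 with all arrays and at -0.081 ± 0.11 without replicate 5, and passed in neither. The Cyp4a genes are close paralogs, so signal may be shared between their probe sets.

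Of the peroxisomal genes, Pex11a scored 0.49, 0.65, 0.58, 0.63 and 0.68 in the controls and 0.65, 0.77, 0.74, 0.73 and 1.24 after triadimefon. The other 4 treated arrays lay within a narrow band near the top of the controls, and replicate 5 was well above it. The difference of Pex11a was 0.22 ± 0.070 (adjusted p = 0.042), and the call was lost without replicate 5 (0.12 ± 0.057, adjusted p = 0.2) and in 4 other cases of 1 array left out, control replicates 1, 2 or 3 or triadimefon replicate 2. It was not called on quantile-normalized scores without replicate 5 either (0.17, adjusted p = 0.052). The second probe set of Pex11a, with a mean score of -0.0062, gave 0.10 ± 0.062 with all arrays and did not pass. Hacl1, the lyase of branched-chain alpha-oxidation, gave 0.44 ± 0.17 (adjusted p = 0.1). Ehhadh and Hsd17b4, the bifunctional enzymes of peroxisomal oxidation, gave 0.070 ± 0.11 and 0.065 ± 0.10 and did not pass.

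Acot2, which frees fatty acids from CoA in mitochondria, scored 0.93, 1.07, 1.07, 0.88 and 1.07 in the controls and 1.01, 1.27, 1.37, 1.16 and 2.11 after triadimefon. The groups overlapped through the lowest treated array. The difference was 0.38 ± 0.11 (adjusted p = 0.023), and 0.20 ± 0.077 without replicate 5, where it did not pass (adjusted p = 0.11). Acot2 passed on quantile-normalized scores without replicate 5 (0.29, adjusted p = 0.016). The other 2 probe sets of Acot2 gave 0.33 ± 0.11 (adjusted p = 0.049) and 0.25 ± 0.076 (adjusted p = 0.037). Acot1 and Acot2 are near-identical neighbours, and a probe set listed with both was not used.

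On the deposited scores no gene of the core of mitochondrial oxidation passed the test after triadimefon at 24 h. On quantile-normalized scores Acadvl, Hadha and Hadhb were higher by 0.12, 0.13 and 0.21 and Etfb lower, at -0.087 (adjusted p = 0.0031, 0.011, 0.0016 and 0.032). Without replicate 5 as well, Acadvl, at 0.090, Hadhb, at 0.15, and Etfb, at -0.098, passed and Hadha, at 0.087, did not (adjusted p = 0.024, 0.012, 0.026 and 0.075). On the deposited scores, the differences of the 4 acyl-CoA dehydrogenases ranged from -0.20 to -0.0020, the 3 electron transfer genes from -0.23 to -0.10, and Hadha, Hadhb, Hadh and Acaa2 from -0.12 to 0.074. The electron transfer dehydrogenase Etfdh was at -0.23 ± 0.085 (adjusted p = 0.092) with all arrays and fell by 0.30 ± 0.083 without replicate 5 (adjusted p = 0.019). Acat1 and Bdh1, which act in ketone body metabolism, were at -0.24 ± 0.10 and -0.27 ± 0.093 (adjusted p = 0.13 and 0.066), with 0 of 5 treated arrays above the control mean for either. The second probe set of Bdh1 fell by 0.26 ± 0.065 (adjusted p = 0.0087), and did not pass on quantile-normalized scores (adjusted p = 0.076). Among regulators and other targets, the hepatic transcription factor Creb3l3 was at 0.22 ± 0.11, the pantetheinase Vnn1 at 0.30 ± 0.13 and Pdk4, which holds back pyruvate oxidation, at 0.28 ± 0.18, and none passed. After quantile normalization Creb3l3 was higher by 0.36 (adjusted p = 0.00015). The others past the threshold on that scale only were Cpt1a, Cpt2, Slc25a20, Hacl1 and Hsd17b4. Ppara was at -0.0006 ± 0.036 and Fgf21 at 0.030 ± 0.053.

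**Figure D3:**
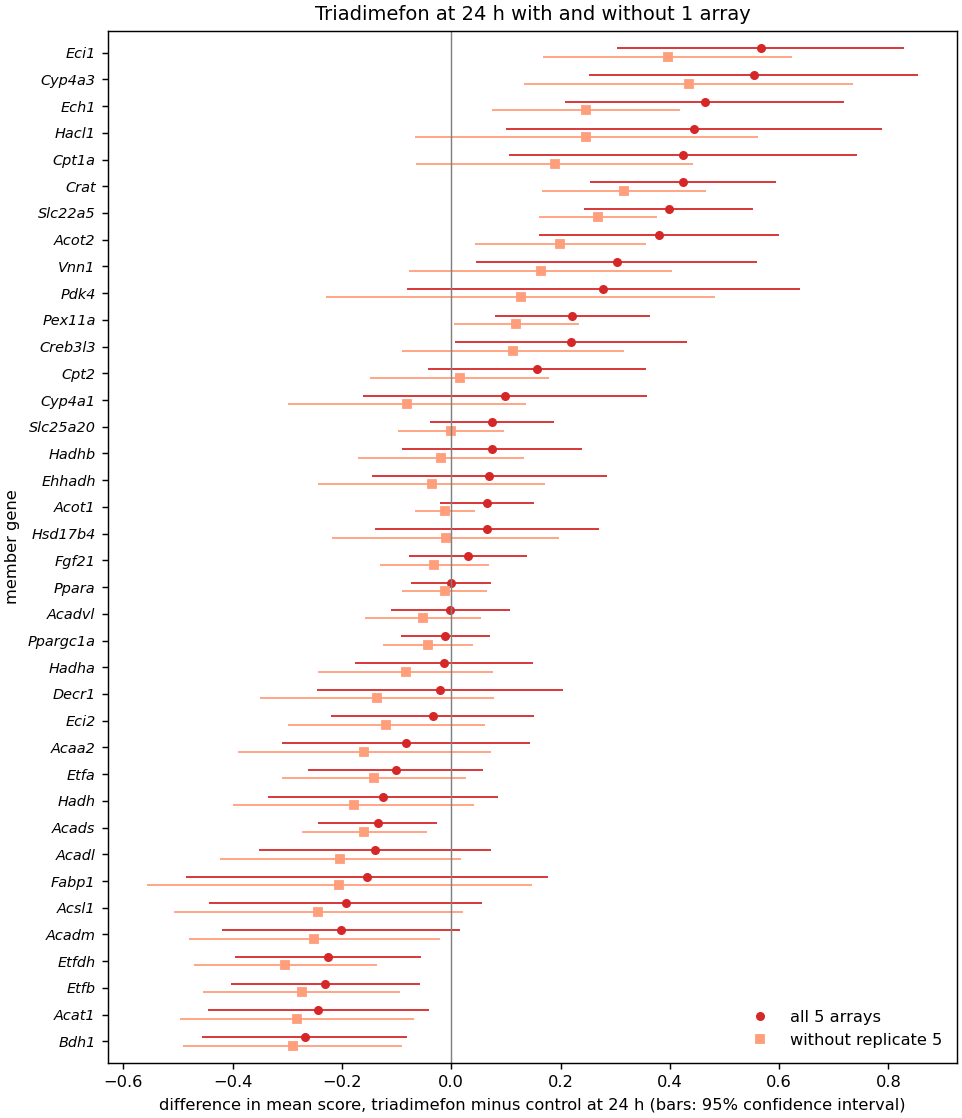
Difference in mean score between triadimefon and control at 24 h (horizontal axis, score units, bars are 95% confidence intervals of the limma fit) for the 38 members (vertical axis), with all 5 treated arrays (circles) and with 4, without replicate 5 (squares). The median of the 38 moves from 0.047 to -0.034. Without replicate 5 the 7 members that rose keep intervals above 0, with lower ends from 0.0042 (Pex11a) to 0.17 (Eci1). The intervals are not adjusted for the number of tests, and of these members only Eci1, Crat and Slc22a5 kept an adjusted p under 0.05.

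At 6 h after triadimefon 2 members fell, Cyp4a3 and Ehhadh, and 0 rose, beside 0.177% lower and 0.738% higher among all probe sets. After quantile normalization 11 fell and 0 rose, beside 0.96% and 1.71% of all probe sets. The median difference of the 38 was -0.084, against 0.0006 over all genes. Cyp4a3 scored 3.27, 3.61, 3.61, 3.10 and 3.27 in the 6 h controls and 2.75, 3.01, 2.71, 2.58 and 2.66 after triadimefon. Ehhadh scored 2.39, 2.88, 2.62, 2.47 and 2.67 in the controls and 2.15, 2.12, 2.19, 2.31 and 2.05 after triadimefon. Neither gene's groups overlapped, with every treated array below every control. The difference of Cyp4a3 was -0.63 ± 0.15 (adjusted p = 0.022) and that of Ehhadh -0.44 ± 0.11 (adjusted p = 0.026). The call of Cyp4a3 ended without control replicate 2 or 3 or triadimefon replicate 1 or 5, and that of Ehhadh also without control replicate 5 or triadimefon replicate 2, with adjusted p up to 0.085 and 0.087. The 6 h groups mix array files of different name endings, and within ending 11, with 3 controls and 2 treated arrays, the differences were -0.60 and -0.33 with no call.

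After myclobutanil at 6 h, 0 of 38 members rose or fell in the limma fit, beside 0.271% higher and 0.11% lower of all probe sets, and 11 members had an unadjusted p under 0.05, as did 2624 of the 31042 probe sets. After quantile normalization 8 fell and 0 rose, beside 0.564% and 0.857% of all probe sets. The median difference of the 38 was -0.11, against -0.0056 over all genes, and both compounds were compared with the same controls. Cyp4a1 scored 2.69, 3.00, 2.82, 2.59 and 2.77 in the controls and 2.24, 2.32, 2.19, 2.17 and 2.34 after myclobutanil. Every treated array was below every control, and the difference of -0.53 ± 0.13 did not pass (adjusted p = 0.051). Cyp4a3 was at -0.56 ± 0.15, Eci1 at -0.48 ± 0.13, Ech1 at -0.46 ± 0.13, Ehhadh at -0.39 ± 0.11 and Acot2 at -0.37 ± 0.11, with adjusted p from 0.081 to 0.13. After triadimefon the same genes stood at -0.63, -0.38, -0.40, -0.44 and -0.31, against the same controls. Between the compounds at 6 h, 0 members differed in either direction, beside 0.2% higher and 0.0515% lower of all probe sets, and 1 had an unadjusted p under 0.05, as did 2307 of the 31042 probe sets. After quantile normalization 0 members differed as well, beside 0.512% higher and 0.242% lower.

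At 24 h after myclobutanil, 1 member fell, Cyp4a1, and 0 rose, beside 5.42% lower and 3.05% higher of all probe sets, a share above that of the members. Cyp4a1 scored 2.23, 2.76, 2.51, 2.16 and 2.41 in the controls and 2.04, 2.05, 1.89, 1.72 and 2.05 after myclobutanil, without overlap. The difference was -0.46 ± 0.13 (adjusted p = 0.018), and it did not pass without control replicate 2 or without myclobutanil replicate 4 (adjusted p up to 0.087). The genes that rose after triadimefon were near the controls here, with Slc22a5 at 0.023 ± 0.077, Crat at 0.096 ± 0.084, Eci1 at 0.12 ± 0.13, Ech1 at 0.0067 ± 0.13, Cyp4a3 at 0.14 ± 0.15, Acot2 at 0.11 ± 0.11 and Pex11a at -0.071 ± 0.070. After quantile normalization 2 members rose, Acaa2 and Hsd17b4, and 4 fell, Acsl1, Acadm, Etfb and Cyp4a1, beside 6.05% higher and 4.78% lower of all probe sets, so the share of members that rose was near that of all probe sets. Of the 6 Kupffer cell markers found, 6 also fell in these livers, and their mean score ranged from 0.76 to 1.06 against 1.13 to 1.61 in the controls. Their part in the result was not tested.

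A direct comparison of the treatments at 24 h, at unequal doses, gave 5 members higher after triadimefon and 0 lower, beside 0.322% higher and 0.734% lower of all probe sets. They were Hacl1 at 0.67 ± 0.17 (adjusted p = 0.037), Cyp4a1 at 0.56 ± 0.13 (adjusted p = 0.017), Slc22a5 at 0.38 ± 0.077 (adjusted p = 0.0072), Crat at 0.33 ± 0.084 (adjusted p = 0.041) and Pex11a at 0.29 ± 0.070 (adjusted p = 0.025). Hacl1 scored 1.64, 1.60, 1.79, 1.70 and 1.82 after myclobutanil and 1.84, 2.52, 2.30, 2.05 and 3.17 after triadimefon, without overlap. Cyp4a1 and Slc22a5 did not overlap between the treatments either. The difference of Eci1, 0.44 ± 0.13, of Ech1, 0.46 ± 0.13, and of Cyp4a3, 0.42 ± 0.15, did not pass (adjusted p = 0.086, 0.061 and 0.2). Without triadimefon replicate 5 only Slc22a5 kept its call (0.25 ± 0.054, adjusted p = 0.021), beside 0.155% of all probe sets higher. The call of Cyp4a1 ended only in that case (0.38, adjusted p = 0.094), those of Crat and Hacl1 in 8 of 10 cases of 1 array left out, each myclobutanil array among them, and that of Pex11a in 4 of 10, with myclobutanil replicates 1, 3 and 5. With only these 2 groups in the limma fit 0 members passed. Without triadimefon replicate 1, 8 were higher and 0 lower, and without triadimefon replicate 4, 7 and 0. After quantile normalization 11 were higher and 0 lower, beside 1.13% and 2.46% of all probe sets, and without replicate 5 as well 3 were higher (Slc22a5, Cyp4a1 and Pex11a) and 1 lower (Acaa2). The share of all probe sets is not given for that last setting, for the fit of 2 groups or without replicate 1 or 4. Counts under these settings show only how far the calls depend on the processing. Cpt1a, at 0.59 ± 0.16, just missed the threshold (adjusted p = 0.051), and its second probe set was higher after triadimefon by 0.57 ± 0.14 (adjusted p = 0.025). Of 6 Kupffer cell markers 4 were also higher after triadimefon than after myclobutanil, and their part was not tested.

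At 14 days, 0 members passed for either compound. Beside these counts, 0.734% of all probe sets were higher and 0.058% lower after myclobutanil, and 3.89% and 2.8% after triadimefon. Unadjusted p-values under 0.05 were met by 4 members after each compound, and by 4070 of the 31042 probe sets after myclobutanil and 7362 after triadimefon, shares above that of the members. After quantile normalization 4 members fell after triadimefon, Cyp4a1, Etfb, Acadm and Fabp1, and 0 rose, beside 4.49% and 4.66% of all probe sets. After myclobutanil 0 members fell or rose on that scale, beside 0.399% and 0.715%. Cyp4a1 scored 2.04, 2.47, 2.16, 2.06 and 2.21 in the controls and 1.89, 1.49, 1.93, 2.03 and 1.66 after triadimefon. Its groups did not overlap, and the difference of -0.39 ± 0.13 missed the threshold (adjusted p = 0.055). Vnn1 was at 0.36 ± 0.13 after triadimefon (adjusted p = 0.08), with every treated array above every control. Between the compounds 0 members differed, beside 0.164% higher and 0.168% lower of all probe sets, and 6 had an unadjusted p under 0.05, as did 3849 of the 31042 probe sets. After quantile normalization 0 differed, beside 0.496% higher and 0.445% lower. The lowest was Cyp4a3 at -0.47 ± 0.15 (adjusted p = 0.17). Leaving out myclobutanil replicate 5, with its muscle markers, gave 0 calls as well.

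The effect of triadimefon changed with time. Between 6 and 24 h it rose for 8 members and fell for 0, beside 0.551% higher and 2.58% lower of all probe sets. Cyp4a3 swung most, from -0.63 at 6 h to 0.55 at 24 h, a change of 1.19 ± 0.21 (adjusted p = 0.0013). Eci1 changed by 0.94 ± 0.18, Ech1 by 0.87 ± 0.18, Acot2 by 0.69 ± 0.15, Ehhadh by 0.51 ± 0.15, Crat by 0.48 ± 0.12, Pex11a by 0.46 ± 0.099 and Slc22a5 by 0.41 ± 0.11, with adjusted p from 0.0027 to 0.04998. These changes include the shift of the controls, in which Cyp4a3, Ech1, Eci1 and Slc22a5 were lower at 24 h than at 6 h, as given below. Without triadimefon 24 h replicate 5, 7 of the 8 kept their call and Ehhadh lost it, as it did in 12 other cases of the 20 with 1 array left out. Slc22a5 also lost it without any of 4 single 6 h arrays, control replicates 1 or 3 or triadimefon replicates 3 or 4, and Crat without triadimefon 6 h replicate 1. Within file ending 11, with fewer 6 h arrays, 0 members passed. After quantile normalization 15 rose and 0 fell, beside 1.44% and 2.06% of all probe sets.

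From 24 h to 14 days the triadimefon effect fell for 5 members and rose for 1, beside 4.75% lower and 7.91% higher of all probe sets. Those that fell were Cyp4a3 by 0.89 ± 0.21, Eci1 by 0.73 ± 0.18, Crat by 0.56 ± 0.12, Slc22a5 by 0.49 ± 0.11 and Acot2 by 0.49 ± 0.15, with adjusted p from 0.0022 to 0.03. Without replicate 5 at 24 h the same 6 members kept their calls, and that of Acot2 ended without 14-day control replicate 2 or 5 or 14-day triadimefon replicate 4 (adjusted p up to 0.058). Acads, the short-chain dehydrogenase, rose by 0.23 ± 0.076 (adjusted p = 0.042), and missed the threshold on quantile-normalized scores (0.081, adjusted p = 0.18) or without any of 9 single arrays, among them control 24 h replicate 2. After quantile normalization 14 members fell and 0 rose, beside 5.67% and 5.77% of all probe sets. These 2 contrasts share the 24 h groups.

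For myclobutanil, 0 members changed in effect between 6 and 24 h, beside 0.986% higher and 0.76% lower of all probe sets, and 0 between 24 h and 14 days, beside 3.46% and 1.11%. Unadjusted p-values under 0.05 were met by 5 and 4 members, and by 4047 and 6661 of the 31042 probe sets. After quantile normalization 5 rose between 6 and 24 h, Acaa2, Cyp4a3, Eci1, Acot2 and Slc25a20, and 0 fell, beside 2.52% and 1.51% of all probe sets. Between 24 h and 14 days 0 rose or fell on that scale, beside 1.6% and 2.3%. On the deposited scores Cyp4a3 was at 0.70 ± 0.21 (adjusted p = 0.077) and Eci1 at 0.60 ± 0.18 (adjusted p = 0.082) in the contrast of 6 and 24 h.

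Control livers themselves differed between 6 and 24 h. Here 6 members were lower at 24 h and 0 higher, beside 0.741% lower and 2.04% higher of all probe sets. They were Cyp4a3 by -0.67 ± 0.15, Hacl1 by -0.61 ± 0.17, Cpt1a by -0.60 ± 0.16, Ech1 by -0.60 ± 0.13, Eci1 by -0.45 ± 0.13 and Slc22a5 by -0.34 ± 0.077, with adjusted p from 0.0045 to 0.049. Cpt1a scored 2.14, 2.64, 2.49, 2.40 and 2.34 at 6 h and 1.69, 1.81, 1.90, 1.64 and 1.98 at 24 h. Slc22a5 scored 0.60, 0.55, 0.58, 0.46 and 0.59 at 6 h and 0.16, 0.25, 0.23, 0.24 and 0.19 at 24 h. The 2 times did not overlap for either gene. The calls of Slc22a5, Ech1 and Cyp4a3 held when any single array was left out, and those of Cpt1a, Eci1 and Hacl1 were lost in 5, 7 and 7 of 10 cases, with 6 h replicates 2, 3 and 4 and 24 h replicates 1 and 4 among them for each. With file ending as a covariate 3 members passed, and within ending 11, with 3 arrays at 6 h, 0. The share of all probe sets is not given for either setting. After quantile normalization 13 members were lower at 24 h and 0 higher, beside 2.07% and 2.42% of all probe sets. Between 24 h and 14 days, 0 control members differed, beside 0.0515% higher and 0.187% lower of all probe sets, and 0 had an unadjusted p under 0.05, against 6105 of the 31042 probe sets. After quantile normalization 0 differed, beside 0.18% higher and 0.187% lower. The 6 h and 24 h treatment comparisons each rest on their own controls, so the levels after triadimefon can be set beside them: Cyp4a3 averaged 2.74, 3.26 and 2.50 at 6 h, 24 h and 14 days after triadimefon, and 3.37, 2.71 and 2.83 in the controls. Slc22a5 averaged 0.54, 0.61 and 0.24 after triadimefon and 0.56, 0.21 and 0.34 in the controls.

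**Figure D4:**
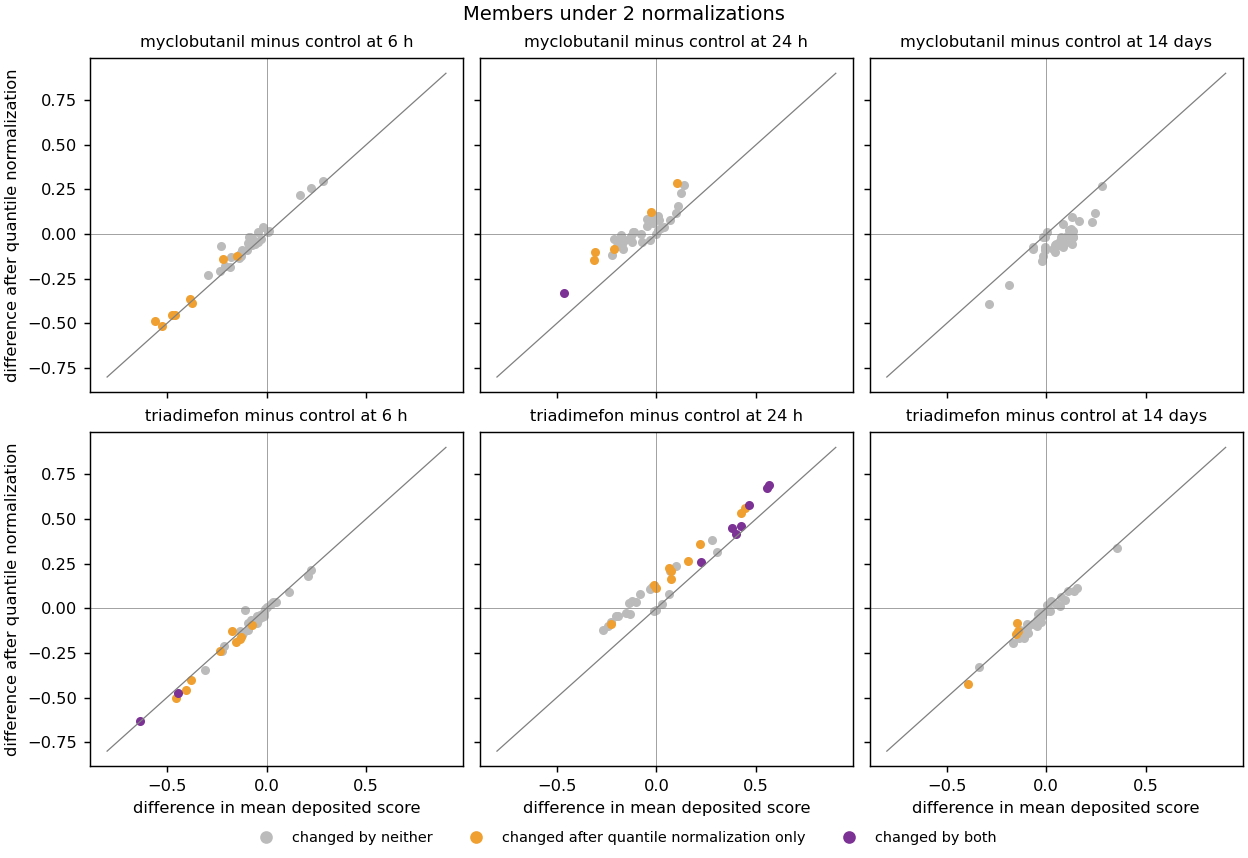
Difference from control of the 38 members on the deposited scores (horizontal axis, score units) against the same after quantile normalization (vertical axis, score units), 1 panel per treatment comparison, with the line of equal values. Purple points changed on both scales, orange points after quantile normalization only and grey points on neither. The median of the 38 moves from 0.047 to 0.12 after triadimefon at 24 h and from -0.059 to 0.0062 after myclobutanil at 24 h, and at 14 days after myclobutanil it moves from 0.080 to -0.036.

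The median over all 14217 genes moved by less than 0.1 between the scales in each of these comparisons. For the median of the members after myclobutanil at 24 h and at 14 days the direction turned with the scale, as the plot of both normalizations shows, so no direction of the whole group is given there.

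Other genes of fatty acid metabolism and of PPAR-alpha action were followed from a list of 144, of which 124 were found. At 24 h after triadimefon 5 rose and 19 fell, beside 2.24% and 5.75% of all probe sets. Without replicate 5, 2 rose and 19 fell, beside 1.67% and 5.59%. After quantile normalization 12 rose and 19 fell, beside 4.45% and 4.58%. The largest rises were Acot4, a peroxisomal thioesterase, by 0.52 ± 0.13 (adjusted p = 0.007), Ephx1, a microsomal epoxide hydrolase, by 0.43 ± 0.14 (adjusted p = 0.048), and Pdp2, a phosphatase of pyruvate dehydrogenase, by 0.37 ± 0.080 (adjusted p = 0.0029). In Acot4 and Pdp2, replicate 5 was again the highest of its group, at 1.85 and 1.26. The largest falls were Fabp5, a fatty acid binding protein, by 0.63 ± 0.15, the glycerol channel Aqp9 by 0.48 ± 0.089 and Bbox1, the last enzyme of carnitine synthesis, by 0.47 ± 0.075, with adjusted p of 0.0051, 0.00057 and 8.7e-05. Bbox1 scored 2.21, 2.51, 2.30, 2.07 and 2.32 in the controls and 1.67, 1.86, 1.86, 1.88 and 1.80 after triadimefon, with no overlap and with replicate 5 inside its group. In the controls themselves Fabp5 and Bbox1 were higher at 24 h than at 6 h, by 0.51 ± 0.15 and 0.33 ± 0.075 (adjusted p = 0.045 and 0.0088). Without control replicate 2, 4 of the 124 rose and 11 fell, with no share of all probe sets given for that omission.

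After myclobutanil at 24 h 2 of the 124 rose and 17 fell, beside 3.05% and 5.42% of all probe sets, and without control replicate 2, 4 rose and 8 fell. No share of all probe sets is given for that omission. The split depended on the scale, with 10 higher and 16 lower after quantile normalization, beside 6.05% and 4.78%. Ephx1 rose by 0.53 ± 0.14 and the lipase Mgll by 0.19 ± 0.053, and Aqp9 fell by 0.48 ± 0.089, the phytanoyl-CoA hydroxylase Phyh by 0.45 ± 0.14 and the kinase Pdk2 by 0.41 ± 0.087. At 6 h 0 rose or fell after either compound in the limma fit. Of all probe sets 0.271% were higher and 0.11% lower after myclobutanil, and 0.738% and 0.177% after triadimefon. After quantile normalization 1 rose and 4 fell after myclobutanil, beside 0.857% and 0.564% of all probe sets. After triadimefon 0 rose and 6 fell on that scale, beside 1.71% and 0.96%.

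At 14 days, when 0 members passed, 10 of the 124 rose after triadimefon and 9 fell, beside 3.89% and 2.8% of all probe sets, and after quantile normalization 12 rose and 15 fell, beside 4.66% and 4.49%. Ephx1 rose by 0.80 ± 0.14, the fatty acid transporter Cd36 by 0.50 ± 0.11 and malic enzyme Me1 by 0.46 ± 0.14. Angptl4, an inhibitor of lipoprotein lipase and a PPAR target, fell by 0.73 ± 0.16 (adjusted p = 0.005), the lipid droplet protein Plin2 by 0.65 ± 0.15 (adjusted p = 0.0076) and G0s2, which inhibits triglyceride lipolysis, by 0.65 ± 0.18 (adjusted p = 0.024). Plin2 scored 2.75, 3.27, 2.75, 2.45 and 2.60 in the controls and 2.20, 2.13, 2.36, 1.67 and 2.23 after triadimefon, without overlap. Angptl4 scored 2.07, 2.08, 1.81, 1.39 and 1.96 in the controls and 1.06, 0.98, 1.43, 1.13 and 1.07 after triadimefon, with 1 control array inside the treated range. After quantile normalization of the myclobutanil comparison at 14 days 3 rose and 2 fell, beside 0.715% and 0.399% of all probe sets. On the deposited scores 4 rose and 0 fell, beside 0.734% and 0.058%, with Ephx1 at 0.88 ± 0.14, Me1 at 0.77 ± 0.14 and Acad9, a mitochondrial dehydrogenase, at 0.21 ± 0.050. Without replicate 5 of that group 7 rose and 0 fell, with no share of all probe sets given for that omission. Between the treatments at 14 days 2 of the 124 were higher after triadimefon and 4 lower, beside 0.164% and 0.168% of all probe sets. Among those lower after triadimefon was Plin2, at -0.67 ± 0.15 (adjusted p = 0.036). After quantile normalization 4 were higher and 6 lower, beside 0.496% and 0.445%.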

How the data were processed

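RNA of rat livers was hybridised to Affymetrix Rat 230 2.0 arrays, 1 array per title. For each array the authors deposited a score per probe set, on a log-type scale. The summarisation, the normalization and the base of the logarithm are not given in the sources used here, and the scores were left unchanged. Of 31099 probe sets, 57 controls were left out. Genes were named through the platform annotation, and all 38 member symbols were unchanged in RefSeq GRCr8. The model, fitted in limma 3.58.1 (R 4.3.3), had 1 mean per group over 45 arrays, moderated by eBayes at its defaults, and p-values were adjusted by Benjamini-Hochberg over 31042 probe sets in each comparison. The code was tested on simulated data. The members and lists were chosen with earlier results of these data known. All members may be named; values per array were given for members changed in a treatment comparison, and from the list of other genes up to 3 higher and 3 lower per comparison. Further values per array, of Cpt1a, Hacl1, Bbox1, Plin2 and Angptl4, were picked after they were seen. Alternatives were quantile normalization, a filter on low levels, fewer groups in the fit, a replicate block, the file ending, a variance trend, other probe sets, other mismatch limits and each array left out. Leaving out triadimefon 24 h replicate 5 together with quantile normalization was chosen after seeing the data.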

Additional observations from a re-analysis of the deposited data

Results flagged for a closer look

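Of 90 group values of 10 members, 5 held an array far from the other 4 (a gap over the range above 0.71, which chance gives in about 1 of 20 groups). Triadimefon 24 h replicate 5 was high for Cyp4a1, at 3.23 with the nearest array at 2.44, for Ech1, at 3.07 against 2.05, and for Pex11a, at 1.24 against 0.77. Triadimefon 6 h replicate 1 was low for Ech1, at 1.75 against 1.93, and control 14 days replicate 2 was high for Ehhadh, at 2.63 against 2.35.

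The treatments differed at 24 h for Slc22a5 (0.38), Crat (0.33), Hacl1 (0.67), Pex11a (0.29) and Cyp4a1 (0.56), all higher after triadimefon in limma contrasts. The triadimefon effect differed between 6 and 24 h for Slc22a5 (0.41), Crat (0.48), Eci1 (0.94), Ech1 (0.87), Ehhadh (0.51), Pex11a (0.46), Cyp4a3 (1.19) and Acot2 (0.69). It differed between 24 h and 14 days for Slc22a5 (-0.49), Crat (-0.56), Acads (0.23), Eci1 (-0.73), Cyp4a3 (-0.89) and Acot2 (-0.49).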

How the results depend on the processing

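Counts are of the 38 members changed. Quantile normalization moved them, for myclobutanil, from 0 to 8 at 6 h and from 1 to 6 at 24 h, and for triadimefon from 2 to 11, 7 to 17 and 0 to 4 at 6 h, 24 h and 14 days. It moved the count between treatments at 24 h from 5 to 11, in the effect over 6 to 24 h from 0 to 5 (myclobutanil) and 8 to 15 (triadimefon), over 24 h to 14 days from 6 to 14 (triadimefon), and in controls over 6 to 24 h from 6 to 13. With triadimefon 24 h replicate 5 left out as well, an alternative chosen after seeing the data, the counts were 12 at 24 h, 4 between treatments, 14 over 6 to 24 h and 11 over 24 h to 14 days. With only the groups compared in the fit, they were 4 (myclobutanil 6 h), 5, 0 and 3 (triadimefon 6 h, 24 h and 14 days), 0 (between treatments at 24 h), and 3 for each effect over 6 to 24 h. These fits hold fewer arrays. A filter to the brighter probe sets gave 1 (myclobutanil 6 h), 2 (myclobutanil 24 h) and 1 (triadimefon 14 days), the variance trend 1 (myclobutanil 6 h), and any probe set of a gene 2 (myclobutanil 24 h) and 1 (myclobutanil effect over 6 to 24 h). Only arrays of file ending 11 gave 0 for triadimefon at 6 h, 2 between treatments at 24 h, 0 for its effect over 6 to 24 h and 0 for controls over 6 to 24 h, where the ending as a covariate gave 3. The cause of the other moves was not tested. The counts in this section stand without the share of all probe sets under the same setting. They show how far the calls depend on the processing, not whether members passed more often than all probe sets.

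Correlations between the deviations of same-numbered arrays were mixed, from -0.37 to 0.34, with at most 3 of 5 above 0.1 in any treatment comparison. With the replicate block the counts were 1 for myclobutanil at 6 h, 2 at 24 h and 8 for triadimefon at 24 h.

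Leaving out 1 array gave 0 to 1 members for myclobutanil at 6 h, 0 to 2 at 24 h and 0 to 0 at 14 days, and for triadimefon 0 to 2, 4 to 10 and 0 to 0. Between treatments it gave 0 to 0, 1 to 8 and 0 to 0 at 6 h, 24 h and 14 days. For effects over time it gave 0 to 0 and 0 to 1 (myclobutanil) and 6 to 10 and 5 to 6 (triadimefon), and for controls 3 to 6 and 0 to 0. Of the single calls of members against control or between treatments under these omissions, 108 held and 42 were lost. No direction of these calls turned in any alternative fit of the chosen probe set. Other probe sets, and calls over time or between controls, were not part of that check. The second probe set of Eci1 lay at -0.0084 for triadimefon at 24 h, with no call. Array number and dim probe sets limit precision.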
